A study of Homo sapiens with 12 samples.

Results

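The 6 genes described here act in or on the ERK pathway: EREG encodes a growth factor, IRS1 a receptor adaptor, MKNK2 a kinase downstream of ERK, and SPRY4, DUSP5 and DUSP6 feedback inhibitors. They were chosen by name and from earlier results of the same 2 region lists, so their numbers of regions are a description and no test was made on them. All 6 are among the 20037 protein-coding genes of the gene table used, of which 1564 held a region in at least 1 list. A region was given to a gene when it overlapped the gene's span on the gene's strand by at least 1 base. For the 4194 of these 20037 genes whose strand was not known, DUSP5 among them, regions of either strand were counted.

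The study mapped where AGO2, an Argonaute protein guided to mRNAs by miRNAs, binds RNA in HCT116 cells, an established human colorectal carcinoma line. It used eCLIP, in which ultraviolet light crosslinks RNA to protein before immunoprecipitation (IP) and sequencing. One cell line carried FH-AGO2 5xA, a tagged mutant with alanines in place of clustered phosphorylation sites, and one carried tagged wild-type AGO2, FH-AGO2 WT. AGO2 knockout cells were the control. All lines were grown for 48 h, received 400 mJ/cm2 of ultraviolet light, and were precipitated with an anti-FLAG antibody. An input and an IP group of 2 samples each were made for every line, 12 samples in all. The labels do not say whether a line is a single clone or whether the tagged lines still express their own AGO2. The values below come from 2 deposited lists, the 5xA list with 2921 regions and the WT list with 1190, each pooled by the authors over the 2 IP samples of its line. With 1 list per line there is no replicate error, and the read depth behind a region is unknown. The 5xA list is the longer one, and differences in depth, threshold and AGO2 form cannot be told apart here, nor can fewer cells with an RNA and less of it per cell in such bulk samples. Of 12 colorectal epithelial markers, CLDN4 held regions in both lists and VIL1, whose region also lies in the span of USP37, in the 5xA list only. The fibroblast marker COL1A1, 1 of 7 examined, held 4 regions with 5xA and 2 with WT. Of 6 blood cell markers, 0 held a region. Over all protein-coding genes of the table used, 7.45% held a region with 5xA and 3.35% with WT. With so few markers, these counts do not tell cell types apart. A region shows bound RNA and is no measure of how much of an mRNA the cells make.

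In the ERK pathway a growth factor binds a receptor tyrosine kinase, adaptors recruit activators of RAS, and RAS starts a relay of the kinases RAF, MEK and ERK. Active ERK switches on effector kinases and the transcription of growth genes. Among its targets are Sprouty and dual-specificity phosphatase genes, whose proteins act back on the pathway and limit the signal. miRNAs loaded into Argonaute mostly pair with sites in the 3' untranslated part of mRNAs, at the downstream end of the gene, and lower their stability and translation.

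AGO2-bound regions lay in 5 of the 6 genes with 5xA and in 5 of the 6 with WT. Over all protein-coding genes of the table, 7.45% held a region in the 5xA list and 3.35% in the WT list, and this background includes genes that the cells may not express. MKNK2, SPRY4, DUSP5 and EREG held regions in both lists (2.99% of all protein-coding genes did), IRS1 in the 5xA list only (4.45% did) and DUSP6 in the WT list only (0.359% did). Since the genes were picked on these lists, nothing is read from how far their counts lie from those shares. Together the genes held 28 regions covering 5987 bases with 5xA, and 21 regions covering 4246 bases with WT. MKNK2 alone supplied 10 of the 5xA and 9 of the WT regions, and without it 18 and 12 were left.

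**Figure D1:**
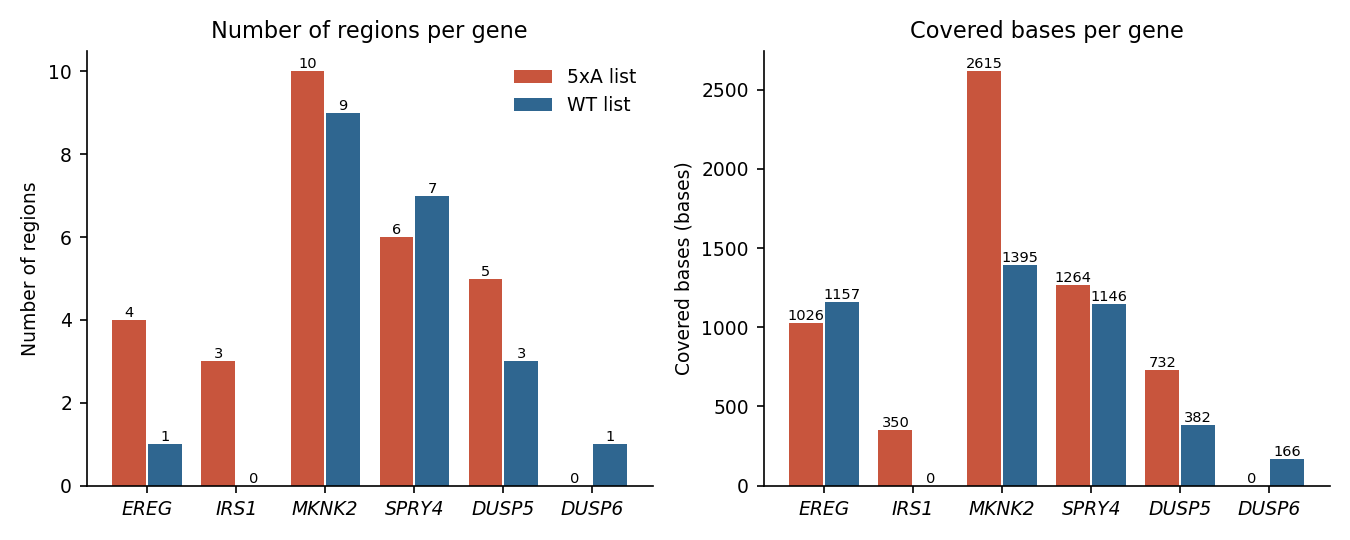
Number of AGO2 regions (left) and bases covered by them (right) in each of the 6 genes, with the 5xA list in red and the WT list in blue; each bar is 1 pooled list, so there are no error bars. MKNK2 is highest in both lists at 2615 and 1395 bases, IRS1 has 0 with WT, and DUSP6 has 0 with 5xA.

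One of these regions lay partly in the reference window around the start of its gene, and it is the only one whose bases could be shown from the reference tables used. It is the upstream 5xA region of MKNK2, on the minus strand at positions 2050843 to 2051225 of chromosome 19 (hg38). Its first 31 bases fall in the RefSeq window around the MKNK2 start (GRCh38.p14, chr19:2051195-2051494, minus strand), which runs from 250 bases before the start to 50 after it. The window is printed 5′ to 3′ in the gene's direction, with the bases inside the 5xA region in capitals.
MKNK2 start window: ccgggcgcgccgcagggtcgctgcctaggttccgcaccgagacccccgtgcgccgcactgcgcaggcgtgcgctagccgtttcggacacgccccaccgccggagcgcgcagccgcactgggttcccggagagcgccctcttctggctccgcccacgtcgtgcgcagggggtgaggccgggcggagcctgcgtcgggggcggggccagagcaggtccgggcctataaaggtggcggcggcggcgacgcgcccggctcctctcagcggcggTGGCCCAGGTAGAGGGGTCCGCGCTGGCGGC
The 5xA region began 19 bases downstream of the annotated first base of the gene. G and C made up 77.4% of the bases in capitals and 77.3% of the whole window. The motif TATAAA, the core of a TATA box, occurred once, beginning 29 bases before the start. Searched on both strands, it was present in 11.5% of 35116 such windows of all genes, and its presence here is a description only. RefSeq windows were matched for 5 of the 6 genes, all but DUSP5, and MKNK2's was the only one that met a region.

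EREG encodes epiregulin, a ligand of the EGF family that activates the receptor EGFR. Its span runs from position 74365145 to 74388749 on the plus strand of chromosome 4. The 5xA list held 4 EREG regions of 145, 126, 247 and 508 bases, covering 1026 bases in all. The WT list held 1 EREG region of 1157 bases, at positions 74387494 to 74388650. That WT region was among the widest of its list, in which 1 region was wider. It overlapped 495 bases of the last 5xA region, at 74388156 to 74388663, and both ended close to the downstream gene end, at 86 bases from it with 5xA and 99 with WT. The other 662 bases of the WT region had no 5xA counterpart, while the 3 remaining 5xA regions lay upstream of the WT region, between 1531 and 3986 bases from the gene end. So the 2 lists drew EREG differently: 4 separate places over 3901 bases with 5xA against 1 unbroken stretch of 1157 bases with WT. EREG was also the only one of the 4 genes in both lists with fewer bases covered by 5xA, at a ratio of 0.887 to WT. More bases were covered with 5xA in 82.3% of the 600 protein-coding genes in both lists, whose median ratio was 1.51 (quartiles 1.06 and 2.28).

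IRS1 encodes the adaptor that couples the insulin and IGF1 receptors to PI3K and to the RAS route into ERK. It held 3 regions with 5xA, covering 350 bases, and none with WT. Its gene is the longest of the group at 68509 bases (chromosome 2, minus strand, 226731312 to 226799820), and its regions lay at both ends of it. One of 186 bases (226795517 to 226795702) began 4118 bases from the upstream end, and one of 96 bases (226795207 to 226795302) followed 214 bases further on. The third, of 68 bases (226735339 to 226735406), lay 4027 bases from the downstream end. IRS1 was thus the one gene here with most of its regions in the upstream part of its span. A stretch of 59800 bases without a region separated these from the third. These are distances along the gene, introns included, and do not give positions in the mRNA. The region of 68 bases was also the narrowest 5xA region of the group.

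MKNK2 encodes MNK2, a kinase that ERK activates and that phosphorylates the translation factor eIF4E. Its span runs from 2037471 to 2051244 on the minus strand of chromosome 19. It held 10 regions and 2615 bases with 5xA, against 9 regions and 1395 bases with WT. Of all protein-coding genes, 7 held more 5xA regions and 2 held more WT regions. By covered bases 3 genes were above it in the 5xA list and 11 in the WT list. Most of these bases, and all of those with WT, lay in the last stretch of the gene. There, 8 of the 5xA regions, with 2076 of the 2615 bases, ran from 11 to 2307 bases from the downstream end and covered 90.4% of that stretch, with gaps of 16 to 57 bases. All 9 of the WT regions ran from 12 to 2330 bases from the end and covered 60.2%, with gaps of 1 to 297 bases.

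The MKNK2 stretches thus had nearly the same ends in both lists, and the lists differed in how full they were. Every WT region of MKNK2 overlapped a 5xA region, and 1368 of the 1395 WT bases (98.1%) were also covered with 5xA. One 5xA region of 486 bases, at 2038736 to 2039221, spanned 4 separate WT regions of 82, 114, 97 and 139 bases. A 5xA region of 337 bases (2037892 to 2038228) met a WT region of 95 bases (2038136 to 2038230) over 93 bases, so that most of it was covered with 5xA only. 5xA regions of 149 bases (2038571 to 2038719) and 184 bases (2039241 to 2039424) lay in gaps of the WT list. The other 2 MKNK2 regions found with 5xA only lay far upstream. One was the region near the gene start, 383 bases wide, and one, of 156 bases, lay at 2046467 to 2046622, 4622 bases from the upstream end.

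**Figure D2:**
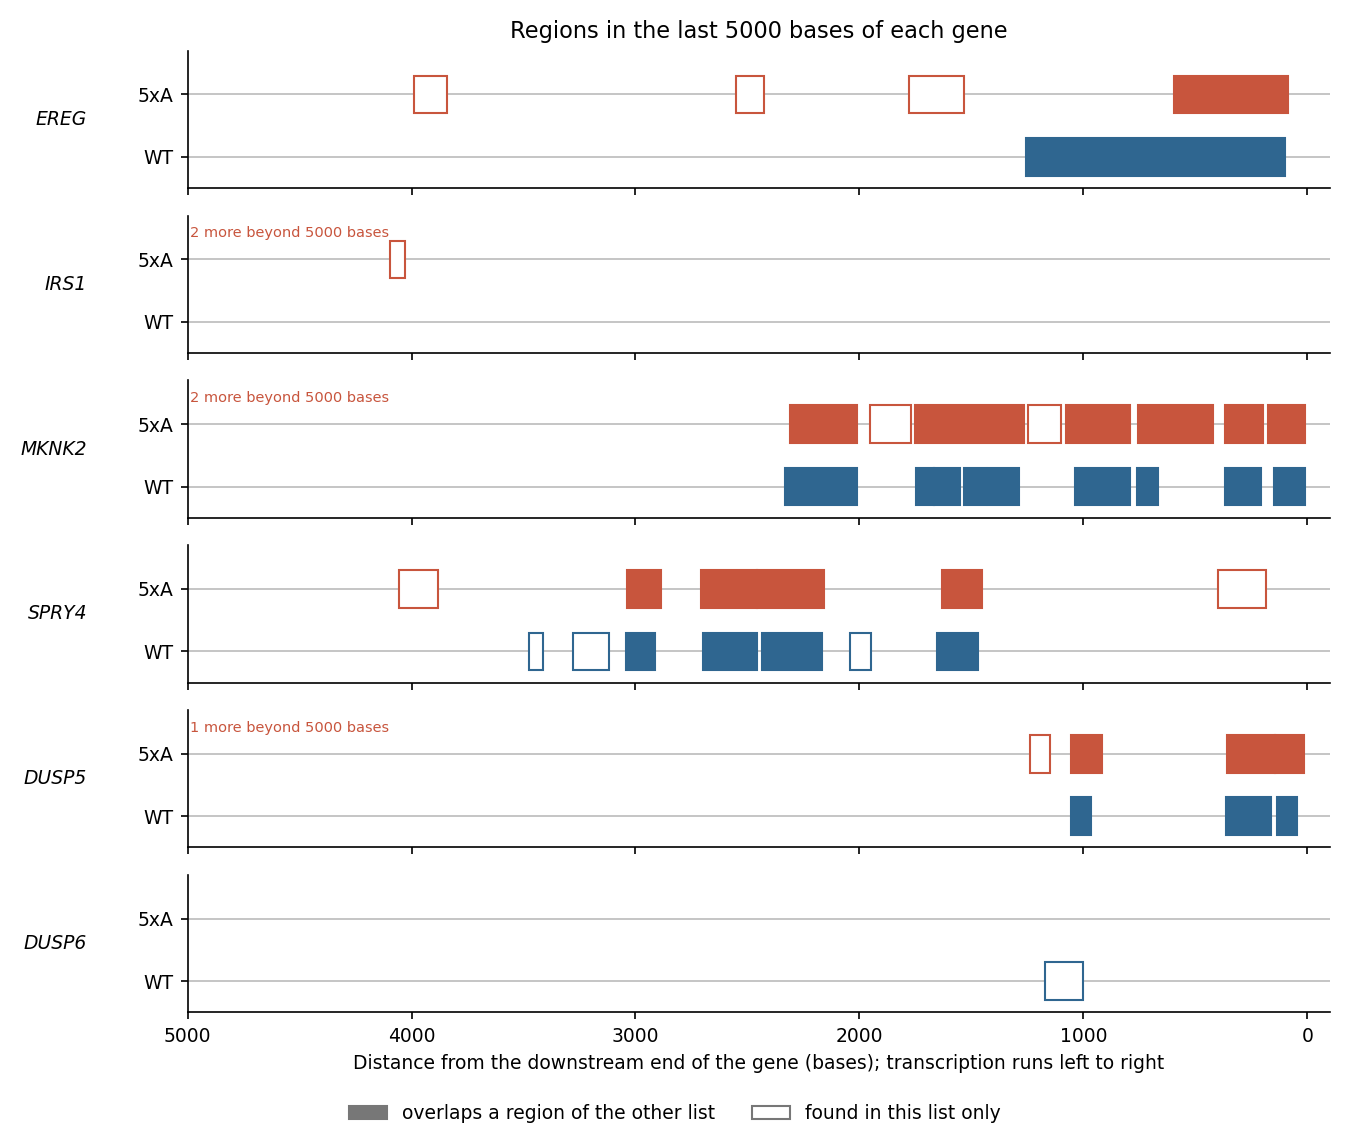
Regions in the last 5000 bases of each gene, by distance from the downstream gene end in bases, with the 5xA list above the WT list in each panel. Filled boxes overlap a region of the other list, open boxes do not, boxes 1 base apart look joined, and regions beyond 5000 bases are given as a number. The MKNK2 boxes span 11 to 2307 bases with 5xA and 12 to 2330 with WT, while EREG has 4 boxes with 5xA and 1 of 1157 bases with WT.

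SPRY4 encodes a Sprouty protein, an inhibitor that receptor tyrosine kinase signalling induces and that dampens the step from receptors to RAS and ERK. Its span lies on the minus strand of chromosome 5, from 142310430 to 142325021. SPRY4 held 6 regions covering 1264 bases with 5xA, and 7 regions covering 1146 bases with WT. It was the only one of the 4 genes in both lists with fewer 5xA than WT regions, as in 6.0% of the 600 protein-coding genes in both lists. The other 3 had more with 5xA, as 49.8% of those genes did. Of all protein-coding genes, 37 held more 5xA regions and 5 held more WT regions than SPRY4.

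In SPRY4, 4 regions of each list paired with one another, and their edges lay within 27 bases of each other. The widest pair was 298 bases with 5xA (142312588 to 142312885) and 271 bases with WT (142312595 to 142312865). Next to it, 251 bases with 5xA faced 242 bases with WT, and the 5xA regions of these neighbours were 1 base apart. Outside these pairs each list had regions of its own. In EREG, MKNK2 and DUSP5 every WT region overlapped a 5xA region by at least 1 base. EREG still had 662 bases covered in the WT list only, against 347 in SPRY4. With 5xA only, a SPRY4 region of 174 bases lay 3884 bases from the gene end. Another, of 212 bases (142310616 to 142310827), lay 186 bases from it. With WT only, regions of 65, 158 and 97 bases lay 3411, 3119 and 1947 bases from the end. The WT regions of SPRY4 therefore stopped 1471 bases short of the gene end, and the 5xA regions reached to within 186 bases of it. Of the SPRY4 bases covered in the WT list, 69.7% were also covered with 5xA.

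DUSP5 encodes a phosphatase of the nucleus that removes the activating phosphates of ERK and holds it there. It spans 110497907 to 110511533 on chromosome 10, and its regions were all on the plus strand. It held 5 regions and 732 bases with 5xA, against 3 regions and 382 bases with WT. Each WT region of DUSP5 had a 5xA partner in the last 1056 bases of the gene. The pairs were 138 bases with 5xA and 93 with WT, 212 with 5xA and 201 with WT, and 131 with 5xA and 88 with WT. With 5xA, 375 of the 382 WT bases (98.2%) were covered again. The other 2 regions were found with 5xA only. One of 86 bases lay just upstream of the pairs, 1151 bases from the gene end, and one of 165 bases (110497959 to 110498123) lay 52 bases from the upstream end of the gene.

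DUSP6 encodes the cytoplasmic ERK phosphatase MKP3. It was the reverse of IRS1, with 1 region in the WT list and none in the 5xA list. The region was 166 bases wide, at 89348239 to 89348404 on the minus strand of chromosome 12, and lay 1004 bases from the downstream end of a gene of 5267 bases (89347235 to 89352501). It also lay in the span of the readthrough gene POC1B-DUSP6, so its reads cannot be assigned between these annotations. The nearest 5xA region on that strand was 853539 bases away. No sign of a weaker 5xA region could be looked for, since the list holds only regions past the authors' unstated threshold.

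Of the 28 regions with 5xA, 14 overlapped a WT region (50%, exact Clopper-Pearson 95% interval 30.6 to 69.4), and of the 21 with WT, 17 overlapped a 5xA region (81.0%, 58.1 to 94.6). These intervals cover counting error only and treat neighbouring regions of a gene as independent. In the whole lists 32.3% of 5xA and 81.3% of WT regions were shared. There were 13 pairs in which 1 region of each list met the other alone, and the 5xA region was the wider in 10 of them, with a median difference of 22 bases. The 4 WT regions of MKNK2 that lay in a single 5xA region are not among these pairs. The upstream and downstream edges of the 13 pairs lay a median of 11.5 bases apart. The 5xA region reached further downstream in 11 of the 13 pairs and further upstream in 5. The largest differences were in EREG, at -649 bases for 5xA minus WT, and in MKNK2, at 242 bases.

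Counted in bases, 3037 were covered in both lists, which is 50.7% of the 5xA bases and 71.5% of the WT bases of these genes. The share of a gene's covered bases that both lists held was 51.8% in MKNK2, 50.7% in DUSP5, 49.6% in SPRY4 and 29.3% in EREG. Over the 600 protein-coding genes in both lists its median was 49.1% (quartiles 31.5 and 70.5). MKNK2, DUSP5 and SPRY4 thus lay near that median and EREG below the lower quartile. The regions here had a median width of 176 bases with 5xA, against 104 in the whole 5xA list. With WT the median was 139 bases, against 114 in the whole WT list. IRS1 with 5xA (median 96 bases) and DUSP5 with WT (93) lay below their lists, and the other genes with regions lay above. Since the genes were picked on these lists, nothing is read from these differences in width. The 14 regions found with 5xA only had a median width of 160.5 bases (68 to 383), against 231.5 bases for the shared 5xA regions.

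**Figure D3:**
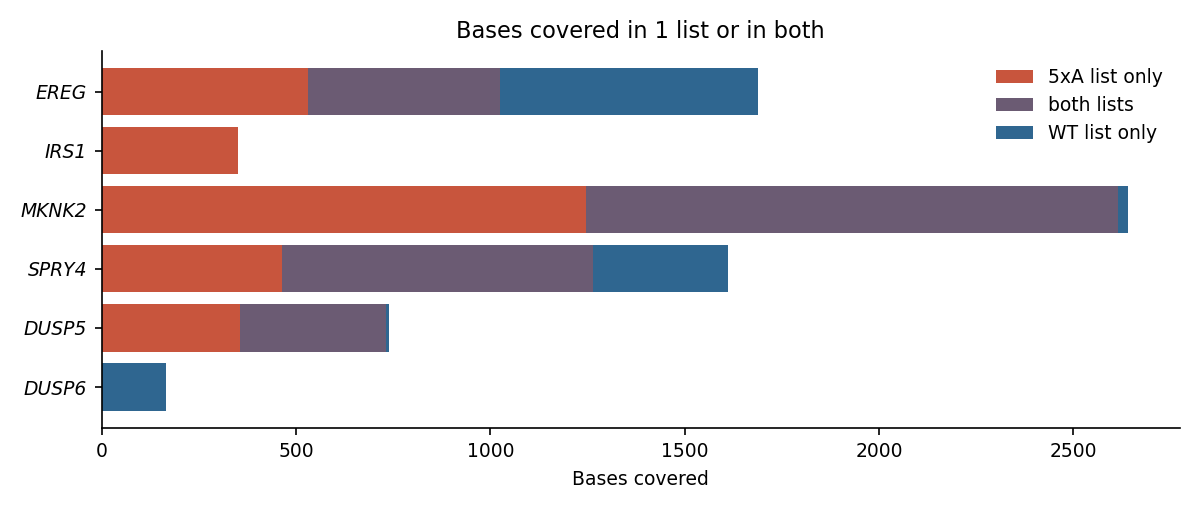
Bases covered in each gene, split into those covered in the 5xA list only (red), in both lists (purple) and in the WT list only (blue). MKNK2 and DUSP5 have 27 and 7 bases in the WT list only, and EREG has 662.

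By position, 23 of the 28 regions with 5xA (82.1%, exact 95% interval 63.1 to 93.9) and all 21 with WT (100%, 83.9 to 100) were at most 5 kb from the downstream end of the gene. Among all overlaps of a region with a protein-coding gene the shares were 81.0% with 5xA and 83.5% with WT. The intervals cover counting error only and treat neighbouring regions of a gene as independent, though MKNK2 and SPRY4 held 9 and 7 of the WT regions. The genes were also picked on these lists, so nothing is read from the distance between these shares. The shares depend on gene length too, since a window of 5 kb takes up nearly all of DUSP6 (5267 bases). DUSP5, MKNK2 and SPRY4 span 13627, 13774 and 14592 bases, and EREG and IRS1 span 23605 and 68509. The 5 regions beyond 5 kb were all from the 5xA list: 2 in IRS1, 2 in MKNK2 and 1 in DUSP5. Of these, the DUSP5 region and one of the MKNK2 regions began within 52 bases of the upstream gene end. The table used has no exons, so whether a region lies in an untranslated, coding or intronic part was not analysed here.

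**Figure D4:**
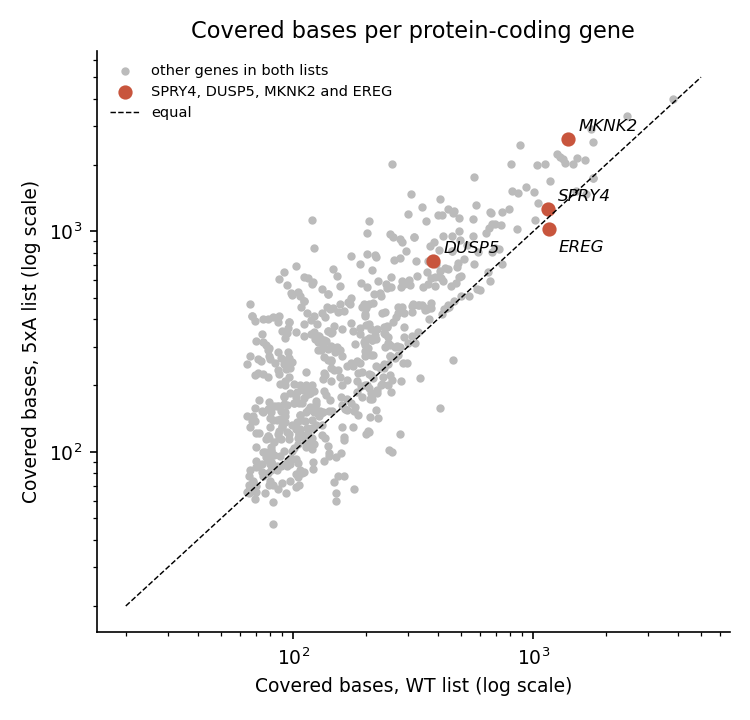
Bases covered per protein-coding gene in the WT list (horizontal, log scale) and the 5xA list (vertical, log scale) for the 600 genes with regions in both lists; the dashed line marks equal values. MKNK2, SPRY4 and DUSP5 lie above the line and EREG below it.

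The genes with the most similar numbers were looked up among protein-coding genes with the same number of regions in each list, by the distance of their covered bases on a log2 scale over the 2 lists. For DUSP5 this was NR6A1, with 708 bases with 5xA and 394 with WT (distance 0.07). For MKNK2 the one gene with 10 and 9 regions was MIDN, with 3338 and 2466 bases (distance 0.89). EREG had no close match, the nearest of 20 genes being the immediate early gene IER3 with 575 and 363 bases (distance 1.87), and no gene shared SPRY4's 6 and 7 regions. IRS1 was nearest to SLC52A2, with 351 bases with 5xA and 0 with WT. DUSP6 was nearest to POC1B-DUSP6, through the same single region.

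Beyond these 6 genes, 93 further genes of the pathway were looked at by role. Regions lay in 28 of the 93 with 5xA (30.1%) and in 16 with WT (17.2%), of which 15 were in both lists, 13 in the 5xA list alone and 1 in the WT list alone. The median number of regions was 0 in each list, as it was over all protein-coding genes. Over all protein-coding genes, 7.45% held a region with 5xA and 3.35% with WT. The list of pathway genes was drawn up with earlier results of these data known and was not tested. Nothing is therefore read from how far its counts lie from those shares, or from the order of the roles.

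Among the other ligands, 3 of 10 held a region, all in the 5xA list only. These were TGFA (103 bases), AREG (140 bases) and HBEGF (80 bases), which encode EGF-family ligands as EREG does, and each held 1 region. EREG was the only ligand of the list with a WT region. Of 22 other receptors and adaptors, 6 held a region with 5xA and 3 of these also with WT. Over all protein-coding genes, 7.45% held a region with 5xA, 3.35% with WT and 4.45% in the 5xA list only. FRS2, the adaptor of FGF receptors, held 4 with 5xA and 2 with WT, and the receptor gene MET held 3 and 1. FGFR3 held 2 and 1, and the adaptor gene GRB2 held 2 with 5xA and none with WT. The IRS1 paralogs IRS2 and IRS4 held no region in either list.

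Of 14 RAS and core kinase genes, 2 held a region with 5xA (14.3%) and 1 with WT (7.14%), beside 7.45% and 3.35% of all protein-coding genes. Of 7 other effector kinase genes, 1 held a region, with 5xA only, and MKNK1, the paralog of MKNK2, held none.

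Of 21 other genes listed as feedback genes or inhibitors, 6 held a region with 5xA and 5 with WT. Over all protein-coding genes the shares were 7.45% and 3.35%. DUSP7, a cytoplasmic ERK phosphatase like DUSP6, held 7 regions (1182 bases) with 5xA and 3 (401 bases) with WT, and all WT bases were covered with 5xA. The nuclear phosphatase gene DUSP2 held 3 regions in each list (593 and 422 bases). DUSP4 held 1 region with 5xA only and DUSP8 held 1 with WT only. ERRFI1, whose product inhibits EGFR, resembled EREG in that 3 regions of 541 bases with 5xA faced 1 region of 602 bases with WT. The ERK-regulated repressor gene ERF held 2 and 1, and the Sprouty genes SPRY1, SPRY2 and SPRY3 held none.

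Of 19 genes listed as transcription targets, 10 held a region in the 5xA list (52.6%) and 7 in the WT list (36.8%). The list also holds the transcription factor genes ELK1 and ELK4, which held no region. Over all protein-coding genes the shares were 7.45% and 3.35%. The shares of these 19 genes were the largest among the roles, but the genes were listed with earlier results of these data known. The cyclin gene CCND1 held 6 regions (2100 bases) with 5xA and 5 (1650 bases) with WT. Among immediate early genes, IER2 held 5 regions with 5xA and 1 with WT, IER3 4 and 1, and EGR1 3 and 2. The transcription factor gene MYC held 3 and 1, FOSL1 and JUNB held 2 in each list, and FOSL2 held 2 with 5xA and none with WT. Regions of IER3, JUNB and FOSL2 also lay in the span of a neighbouring gene.

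**Figure D5:**
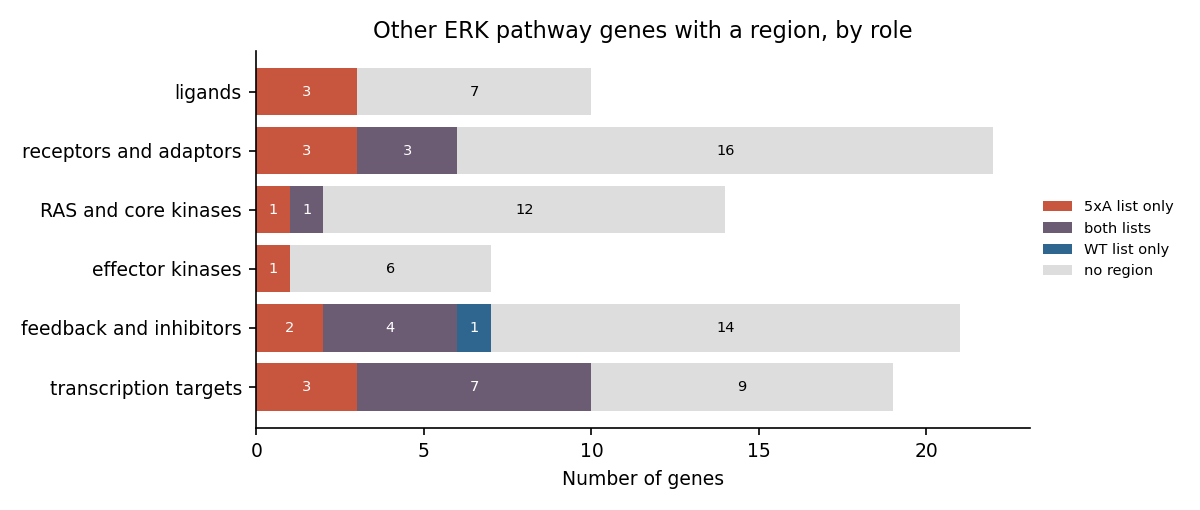
Number of the 93 other pathway genes with a region in the 5xA list only (red), in both lists (purple), in the WT list only (blue) or in neither (grey), by role. Of the transcription targets 10 of 19 hold a region, and of the RAS and core kinases 2 of 14. Over all 20037 protein-coding genes, 1564 hold a region in at least 1 list.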

How the data were processed

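Each deposited list was made by the authors from the 2 IP samples of a line, per the labels' descriptions, and gives each region's position and strand with a score of 0 throughout, which was not used. The submitters' processing notes name the build hg38 and the tools TopHat2 and cutadapt 1.9.1. How peaks were called, at which threshold, with what use of input and knockout samples, and how replicates were merged was not given in the sources used here. Inputs and knockout IPs, 8 samples, were not analysed here.

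Gene spans came from a RefSeq table (GRCh38.p14, the coordinates of hg38), and gene strands and the start window from RefSeq sequences of the same assembly. For the 4194 of 20037 protein-coding genes with no strand in these tables, DUSP5 among them, regions of either strand were counted. A region may count for more than 1 gene. A region was shared if 1 base or more of it lay in a region of the other list on its strand. Overlaps, distances and exact intervals were computed with Python 3.11.15, pandas 2.3.3 and scipy 1.17.1, and the overlap functions were tested on simulated data. The 6 genes and the pathway lists were chosen with earlier results of these data known. From the pathway lists, genes with at least 2 regions in a list and paralogs of the 6 genes with a region are named, with VIL1, CLDN4 and COL1A1 from the marker lists. One result under this rule is not reported here. Genes without a region were named after their values were seen. The planned seed matches of miRNAs in the regions were not run, since no genome sequence was used here. Alternatives changed the strand, overlap, joining, width and window rules and left out each gene in turn.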

Additional observations from a re-analysis of the deposited data

How the results depend on the processing

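Of 92 recomputed values for 10 results, 86 stayed within 1.5 times the count, or within the exact interval of the share. Leaving out each of the 6 genes in turn gave 18 to 28 regions and 3372 to 5987 covered bases with 5xA, and 12 to 21 regions with WT, with each low value reached without MKNK2. With a window of 2 kb, 53.6% of 5xA and 71.4% of WT regions lay near the downstream gene end. With a reciprocal overlap of 50%, 52.4% of the WT regions were shared. The regions lost were narrow MKNK2 WT regions in wider 5xA regions and the wide EREG WT region, of which 42.8% was covered with 5xA. Joining regions within 50 bases left 21 with 5xA and 15 with WT. Without regions that lie in several genes, 28 remained with 5xA and 20 with WT, the DUSP6 region being the one lost. Widths, gaps and numbers of regions depend on the authors' threshold and merging rule, which are unknown here. No paired analysis was possible because each line has 1 pooled list and no value per sample.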

Other observations

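The 2 lists cut a stretch of MKNK2 differently, where a single 5xA region spanned 4 separate WT regions. Among neighbouring regions on a strand, 14 pairs in the whole 5xA list and 3 in the whole WT list were at most 1 base apart. The 6 genes held 2 of these with 5xA, in SPRY4 and DUSP5, and 1 with WT, in MKNK2. At up to 50 bases apart there were 282 pairs in the 5xA list and 99 in the WT list, of which the 6 genes held 7 and 6. In all, the 6 genes had 23 pairs of neighbours with 5xA and 16 with WT. The lists hold 2921 and 1190 regions, so the numbers of pairs are not compared between them.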
